A study of Homo sapiens with 38 samples.

Results

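The genes described here are those that dipped at 2 or 4 h of interleukin 1 beta (IL1B) in Control A549 cells and stood close to their starting level again at 10 h. They were chosen on the group means of the Control arrays. A gene was taken when the lower of its differences from 0 h at 2 h and at 4 h was -0.8 or below on the log2 scale and its difference at 10 h was above -0.3. A log2 difference of -1 means a 2-fold lower level. One probe set stood for each gene, the one with the highest mean over all arrays. Of 11893 genes measured under a single symbol, 286 reached the dip threshold at any 10 h value and 117 met both thresholds. The rule then dropped 5 of these by symbol (CCN1, DUSP7, KLF7, SLC45A4 and SPRY2), which left 112 genes. Of these, 110 are protein-coding, and only 1 had more than 1 probe set. Because these Control values chose the genes, the Control dip and return are given as a description without a test. The tests were made on the arrays of the ORMDL3 knockdown arm, and at 8 h on knockdown against Control, which the rule did not use.

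Just inside the dip threshold were MAML3 at -0.8014, ASB4 at -0.8056 and RASD2 at -0.8091, and just outside it were AFF1 at -0.7989, MID1IP1 at -0.7959 and KAT6B at -0.7947. At the 10 h threshold, DKK1 at -0.2966, ZNF488 at -0.2936 and MAML3 at -0.2830 were just inside, and KANK2 at -0.3043, ZNF850 at -0.3100 and RIPK4 at -0.3122 just outside.

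RNA was measured on 38 Affymetrix arrays from A549, an established human lung adenocarcinoma cell line used as a model of airway and alveolar epithelium. In the ORMDL3 knockdown arm the cells received a pool of small interfering RNAs against ORMDL3, and for the Control arm the labels give no more than that word, with nothing on any transfection. Per the labels' protocols, silencing lasted 48 h and was followed by 24 h without serum in all groups, after which IL1B was added at 1 ng/ml. Knockdown arrays numbered 3 at 0 h and 4 at each of 2, 4, 8 and 10 h, and Control arrays numbered 4 at 0, 2, 4 and 10 h and 3 at 8 h. The 0 h arrays were untreated. No later hour had untreated arrays, so IL1B and the further hours in culture cannot be told apart. Collections at further hours named in the protocol are not analysed here. The labels do not tell whether replicates were separate cultures, and the p-values therefore speak only to the spread among these samples, possibly a technical one.

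ORMDL3 itself, the targeted gene, lay at log2 5.00 to 5.57 (median 5.33, n = 19) in knockdown arrays and at 6.78 to 7.77 (median 7.36, n = 19) in Control arrays, with no overlap. Array medians ran from 8.02 to 8.19. Of 8 epithelial markers, 5 lay above the median of all probe sets. The keratins KRT7, KRT8 and KRT18 lay at log2 12.42 to 13.03, while EPCAM (6.85), CLDN4 (6.26) and CLDN7 (5.602) lay below that median, and the surfactant protein genes that define alveolar type 2 cells were not measured under a single symbol. In a bulk sample, fewer cells expressing a gene and less RNA of it per cell cannot be told apart.

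IL1B is a cytokine that signals through its receptor and MYD88 to NF-kB and the stress-activated MAP kinases. The genes it induces are well known, and its immediate targets include inhibitors that close the signal down again. Many genes that respond to growth factor, BMP, Wnt or Hedgehog signals encode short-lived mRNAs, among them the ID proteins and the inhibitory SMADs. ORMDL3 sits in the endoplasmic reticulum membrane and holds back serine palmitoyltransferase, which begins the making of sphingolipids.

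The promoters of some of these genes are shown first, and a few of them hold the letters of a TATA box close to the start site. The rule chose the members for moving together, and a link between promoter letters and the dip was not tested. RefSeq promoters of GRCh38.p14, windows of 300 bases that run from upstream of each gene's start site to a short stretch beyond it, were matched for 86 of the 112 genes and for 9531 measured genes. The motif TATAAA was found on either strand in 9 of the 86 members (10.5%) and in 558 of the 9531 genes (5.85%). On the coding strand with its first base between -40 and -20 from the start site, a window chosen after the first count was seen, it was found in 6 members (6.98%), ID1, ANGPTL4, DKK1, HEXIM1, GADD45B and MKNK2, against 208 of all genes (2.18%). These shares are descriptions of letters, with no test. A selection of promoters with these exact letters in that window and a pair without them are given 5' to 3' on the coding strand. TATAAA matches on either strand are in capitals. ID1 is at chr20:31605039-31605338 on the plus strand, DKK1 at chr10:52314031-52314330 on the plus strand, and GADD45B at chr19:2475877-2476176 on the plus strand. ID3 is at chr1:23559452-23559751 and SMAD7 at chr18:48950916-48951215, both on the minus strand and both without the exact letters TATAAA. ID3 does hold TATAAG, which differs in the last letter only, and such variants were not counted.
ID1: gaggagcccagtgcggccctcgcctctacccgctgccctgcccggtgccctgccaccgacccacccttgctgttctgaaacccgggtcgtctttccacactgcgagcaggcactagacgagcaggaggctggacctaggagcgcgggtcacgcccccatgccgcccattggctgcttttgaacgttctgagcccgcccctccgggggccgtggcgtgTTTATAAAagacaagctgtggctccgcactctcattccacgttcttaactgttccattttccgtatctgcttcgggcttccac
DKK1: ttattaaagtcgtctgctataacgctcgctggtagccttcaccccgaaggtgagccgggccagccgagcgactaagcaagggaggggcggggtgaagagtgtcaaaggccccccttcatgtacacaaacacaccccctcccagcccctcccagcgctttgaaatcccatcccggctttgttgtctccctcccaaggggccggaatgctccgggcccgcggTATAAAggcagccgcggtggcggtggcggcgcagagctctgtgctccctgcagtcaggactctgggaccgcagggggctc
GADD45B: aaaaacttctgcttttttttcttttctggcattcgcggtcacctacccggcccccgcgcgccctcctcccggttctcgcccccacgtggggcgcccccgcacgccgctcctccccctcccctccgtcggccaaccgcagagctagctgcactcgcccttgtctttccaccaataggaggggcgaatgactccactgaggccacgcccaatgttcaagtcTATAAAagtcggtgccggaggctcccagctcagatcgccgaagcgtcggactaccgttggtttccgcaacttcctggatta
ID3: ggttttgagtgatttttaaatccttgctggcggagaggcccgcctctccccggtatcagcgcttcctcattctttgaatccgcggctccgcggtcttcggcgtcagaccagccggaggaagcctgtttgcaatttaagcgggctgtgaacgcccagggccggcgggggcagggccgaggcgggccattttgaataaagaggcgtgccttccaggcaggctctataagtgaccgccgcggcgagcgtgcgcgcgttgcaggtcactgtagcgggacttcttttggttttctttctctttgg
SMAD7: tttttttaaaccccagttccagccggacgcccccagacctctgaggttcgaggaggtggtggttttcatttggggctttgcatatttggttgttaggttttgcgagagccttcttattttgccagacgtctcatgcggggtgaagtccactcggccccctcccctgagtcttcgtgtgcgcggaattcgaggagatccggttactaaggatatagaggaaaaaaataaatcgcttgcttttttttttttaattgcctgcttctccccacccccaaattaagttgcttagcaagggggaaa
In ID1 the overlapping pair of matches begins at -33 and -31, the first of them on the opposite strand. In DKK1 the match begins at -30 and in GADD45B at -31.

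Other motifs were searched on both strands in the same windows. The GC box GGGCGG was in 70.9% of members and 70.4% of all genes, the CCAAT box CCAAT in 37.2% and 36.1%, and the BMP-responsive SMAD site GGCGCC in 31.4% of both. The E-box CACGTG was in 13.95% of members and 10.2% of all genes. Shares were lower among members for the cAMP response site TGACGT (4.65% against 11.6%), the AP-1 site TGANTCA (2.33% against 4.59%), the TEAD site GGAATG (8.14% against 10.7%) and the AHR site TNGCGTG (5.81% against 7.17%). The forkhead site GTAAACA was in 3.49% of members and 2.32% of all genes. Median GC content was 66.3% in members and 65.7% in all genes.

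In the ORMDL3 knockdown arm, whose arrays were not used to choose the genes, the same genes dipped and came back. Every one of the 112 was called lower than 0 h at 2 h, at 4 h or at both (limma, adjusted p under 0.05), a call made for 22.3% of all 14488 probe sets. Of the 112, 74 were called at both hours, 34 at 4 h only and 4 at 2 h only (ID1, SERTAD3, ZNF703 and RASSF10). A called dip followed by a called rise from that hour to 10 h was found in 111 genes, against 10.9% of all probe sets. The exception was MNT, a MAX-binding repressor, which averaged 8.47 at 0 h, 7.93 at 4 h and 8.17 at 10 h in knockdown cells. Its rise between 4 and 10 h was 0.24 ± 0.13 (adjusted p = 0.194). With the replicate number as a block that rise was called, at 0.24 ± 0.09 (adjusted p = 0.0366). The means of the knockdown arm met both thresholds of the rule for 59 of the 112 genes and for 0.863% of probe sets.

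**Figure D1:**
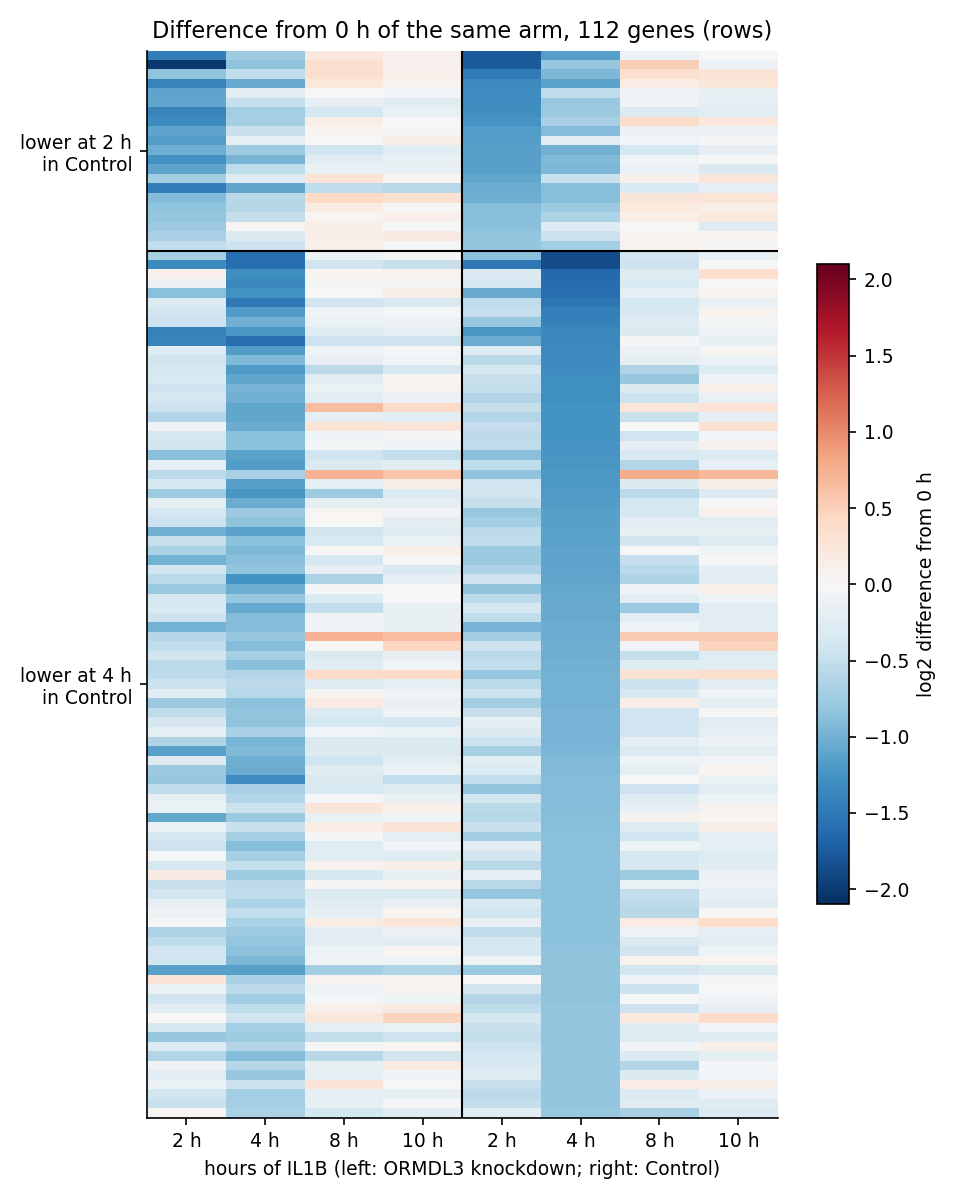
Log2 difference from 0 h of the same arm for each of the 112 genes (rows), at 2, 4, 8 and 10 h, in ORMDL3 knockdown cells (left block) and Control cells (right block); blue is lower and red higher than 0 h. Rows are split into the 21 genes lower at 2 h and the 91 genes lower at 4 h in Control cells, which chose the genes, and both arms are palest at 10 h.

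By hour, 78 of the 112 genes (69.6%) were called lower in knockdown cells at 2 h than at 0 h, against 13.8% of all probe sets. None was called higher by limma and 1 passed an unadjusted p under 0.05, while 9.57% of probe sets were called higher. The members' median difference was -0.46, against -0.05 over all probe sets. At 4 h, 108 genes (96.4%) were called lower, against 17.5% of probe sets, and the median was -0.82, against -0.05. None was called higher at 4 h, or passed an unadjusted p under 0.05 in that direction, while 12.6% of probe sets were called higher. The 4 h knockdown arrays all lay below the 0 h knockdown arrays for 105 genes, against 18.8% of probe sets, and the 2 h arrays did so for 87 genes, against 17.3%. The deeper of the 2 differences ran from -2.02 to -0.41 over the 112 genes, with a median of -0.90.

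The return was as broad. Between 4 and 10 h, 108 genes were called higher in knockdown cells, against 12.5% of probe sets, with a median rise of 0.73 against 0.01 over all probe sets. None was called lower at 10 h than at 4 h, adjusted or unadjusted, while 11% of probe sets were called lower at an adjusted p under 0.05. All 10 h arrays lay above all 4 h arrays for 101 genes, against 11.8% of probe sets. Between 2 and 10 h, 73 genes were called higher, against 18.2% of probe sets. One was called lower there, against 15.1%: MAML3, a Notch coactivator, by -0.27 ± 0.09 (SE, adjusted p = 0.0245), which had not passed the test at 2 h. With the replicate number as a block, RERE (-0.32 ± 0.10, adjusted p = 0.00859) and BCOR (-0.24 ± 0.08, adjusted p = 0.0192) were also called lower there.

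In the Control arm the members' medians were -0.54, -0.96, -0.26 and -0.10 at 2, 4, 8 and 10 h, which describes the choice. In the knockdown arm the medians at 8 and 10 h were -0.14 and -0.08.

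**Figure D2:**
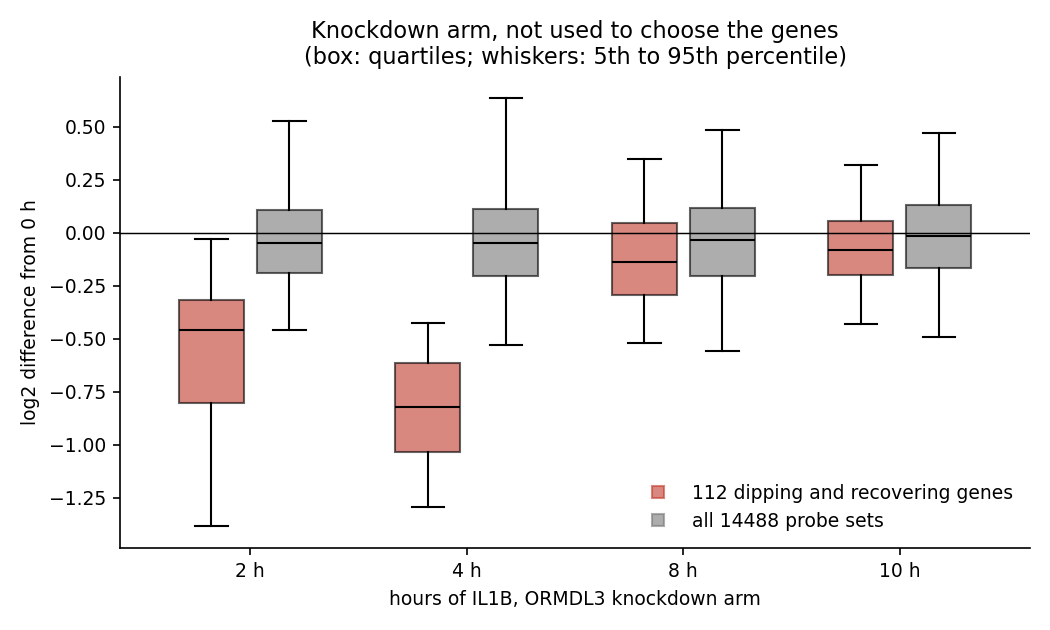
Log2 difference from 0 h in the ORMDL3 knockdown arm at 2, 4, 8 and 10 h for the 112 genes (red, left of each pair) and all 14488 probe sets (grey, right); boxes are quartiles with the median, whiskers the 5th to 95th percentile. The medians of the 112 genes are -0.46, -0.82, -0.14 and -0.08, and those of all probe sets lie between -0.05 and -0.02.

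The genes fell into an early and a later set by the hour of the lower Control mean, 21 at 2 h and 91 at 4 h. That split was made on Control arrays only, and in knockdown cells the lower mean was at the same hour for 21 of the 21 and for 85 of the 91. How often the hours match over all measured genes is not given here. The 21 early genes had a median difference of -1.11 at 2 h and -0.54 at 4 h in knockdown cells. Of these, 17 were called higher at 4 h than at 2 h, against 7.82% of all probe sets. Among the 91 later genes the medians were -0.39 at 2 h and -0.86 at 4 h, and 59 were called lower at 4 h than at 2 h, against 6.81% of all probe sets. All 91 were called lower at 4 h than at 0 h, against 17.5% of all probe sets, and 57 already at 2 h, against 13.8%.

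**Figure D3:**
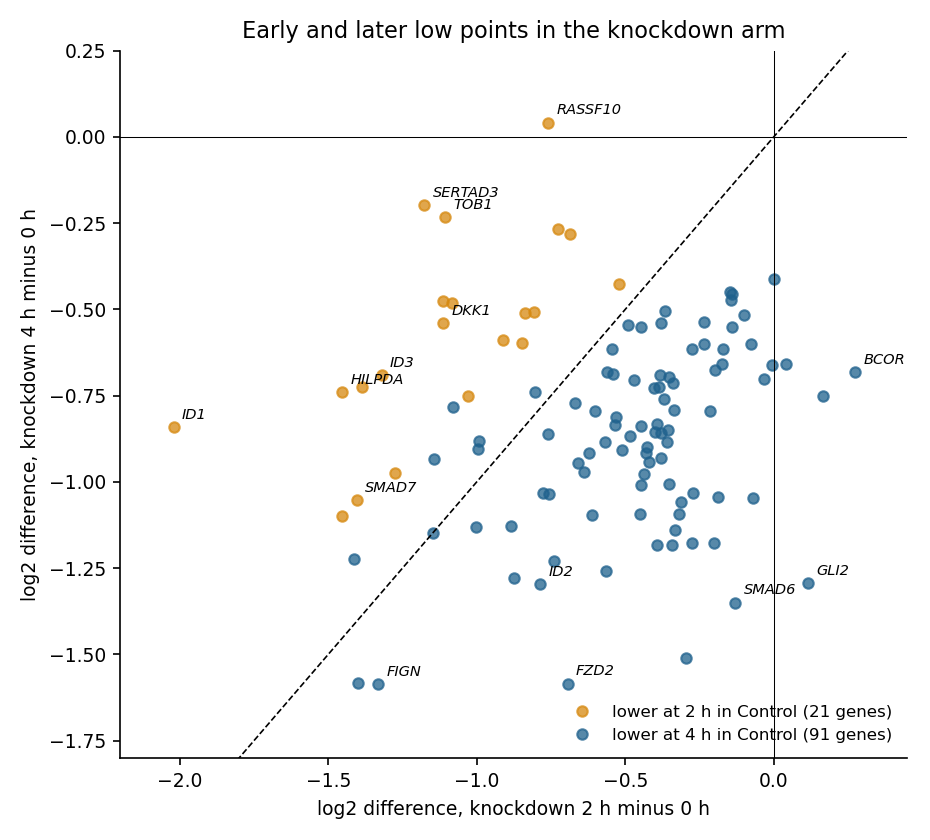
Difference at 4 h (vertical) against the difference at 2 h (horizontal), both log2 minus 0 h in ORMDL3 knockdown cells, for 112 genes; orange marks the 21 genes lower at 2 h in Control cells and blue the 91 lower at 4 h, and the dashed line is equality. ID1 lies farthest left at -2.02, FIGN and FZD2 are lowest on the vertical axis at -1.59 and -1.58, and RASSF10 is the only gene above 0 at 4 h.

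Genes of the BMP and SMAD pathway were represented by 6 members of a list of 36, of which 33 were measured. BMP ligands signal through SMAD proteins, which switch on the ID genes, whose products block basic helix-loop-helix factors, and the inhibitory SMADs 6 and 7, which damp the pathway. All 6 were called lower in knockdown cells at 2 or 4 h, as were all 112 members, against 22.3% of all probe sets.

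ID1 was the lowest of all members at 2 h. In knockdown arrays it stood at 10.93, 10.74 and 9.89 at 0 h, at 8.70, 9.08, 8.42 and 7.81 at 2 h, at 10.32, 10.15, 9.30 and 8.96 at 4 h, at 11.03, 11.18, 10.89 and 10.38 at 8 h and at 10.75, 10.95, 10.50 and 10.25 at 10 h. In Control arrays it stood at 10.76, 10.87, 10.67 and 9.93 at 0 h, at 9.28, 9.07, 9.10 and 7.75 at 2 h, at 10.17, 10.11, 10.01 and 8.73 at 4 h, at 11.01, 11.10 and 11.10 at 8 h and at 10.28, 10.87, 10.41 and 10.17 at 10 h. The 2 h arrays lay below all 0 h arrays of their arm, and the array numbered 4 was the lowest at every hour that had one, in both arms. In knockdown cells ID1 fell by 2.02 ± 0.36 at 2 h (adjusted p = 5.39e-05) and rose between 2 and 10 h by 2.11 ± 0.33 (adjusted p = 7.01e-06). At 4 h the difference was -0.84 ± 0.36 with adjusted p = 0.0763. With the replicate number as a block it was -0.85 ± 0.18 with adjusted p = 0.000284. The rise between 4 and 10 h, 0.93 ± 0.33 (adjusted p = 0.0393), lost its call without any of 5 single arrays, and was lowest, 0.69 (adjusted p = 0.178), without knockdown 4 h replicate 4. ID1 at 4 h was called without knockdown 0 h replicate 4 (-1.16, adjusted p = 0.027), without knockdown 4 h replicate 1 (-1.05, adjusted p = 0.0333) and without the replicates numbered 4 of Control at 2 h or at 4 h.

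ID3 had the same early timing as ID1. It averaged 9.90 ± 0.29 at 0 h (SD, n = 3), 8.58 ± 0.14 at 2 h, 9.21 ± 0.23 at 4 h, 10.05 ± 0.21 at 8 h and 9.89 ± 0.16 at 10 h in knockdown cells (SD, n = 4), and 9.83 ± 0.17, 8.60 ± 0.26, 9.15 ± 0.19, 10.22 ± 0.08 and 10.06 ± 0.12 at the same hours in Control cells. It fell by 1.32 ± 0.14 at 2 h (SE, adjusted p = 5.06e-09), and had risen from there by 0.63 ± 0.13 at 4 h (adjusted p = 0.000827). ID2 had its low point later. In knockdown cells it fell by 0.79 ± 0.12 at 2 h and fell by 1.30 ± 0.12 at 4 h, and at 10 h it was still called lower than at 0 h, at -0.51 ± 0.12 (adjusted p = 0.00198), a call lost when the arrays numbered 4 were left out (-0.40, adjusted p = 0.0698).

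SMAD7 and SMAD6 differed in timing. SMAD7 in knockdown arrays stood at 7.61, 7.64 and 7.84 at 0 h, at 6.60, 5.88, 6.22 and 6.47 at 2 h, at 6.54, 6.63, 6.58 and 6.82 at 4 h, at 7.48, 7.96, 7.83 and 8.44 at 8 h and at 7.73, 7.65, 7.83 and 7.85 at 10 h. In Control arrays it stood at 7.76, 7.18, 7.38 and 7.62 at 0 h, at 6.32, 5.97, 6.25 and 6.10 at 2 h, at 6.25, 6.43, 6.27 and 6.52 at 4 h, at 7.74, 7.58 and 7.61 at 8 h and at 7.81, 7.60, 7.73 and 7.81 at 10 h. The 2 h and 4 h arrays lay below every 0 h, 8 h and 10 h array. SMAD7 fell by 1.40 ± 0.15 at 2 h (adjusted p = 7.02e-09) and by 1.05 ± 0.15 at 4 h (adjusted p = 1.4e-06) in knockdown cells. SMAD6 in knockdown arrays stood at 9.38, 9.65 and 9.59 at 0 h, at 9.40, 9.35, 9.46 and 9.44 at 2 h, at 7.91, 8.26, 8.40 and 8.19 at 4 h, at 9.50, 9.58, 9.63 and 9.32 at 8 h and at 9.43, 9.47, 9.65 and 9.53 at 10 h. The Control arrays stood at 9.51, 9.66, 9.47 and 9.81 at 0 h, at 9.23, 9.18, 9.16 and 9.48 at 2 h, at 7.74, 8.00, 8.04 and 8.26 at 4 h, at 9.15, 9.43 and 9.31 at 8 h and at 9.60, 9.55, 9.66 and 9.66 at 10 h. The 4 h arrays of SMAD6 stood apart from all others in both arms. At 2 h the knockdown difference of SMAD6 was -0.13 ± 0.11 (adjusted p = 0.418), and at 4 h it fell by 1.35 ± 0.11 (adjusted p = 3.35e-12).

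BMP4, a ligand of the pathway, fell by 0.67 ± 0.18 at 2 h (adjusted p = 0.0052) and by 0.77 ± 0.18 at 4 h (adjusted p = 0.000906) in knockdown cells, and its 10 h difference was -0.12 ± 0.18. INHBB, which encodes a subunit of activin B and was not on that list, fell by 0.84 ± 0.10 at 4 h and rose again by 0.65 ± 0.09 between 4 and 10 h. VASN, a membrane protein that binds TGF-beta, fell by 0.87 ± 0.10 at 2 h and by 1.28 ± 0.10 at 4 h, and had a 10 h difference of 0.12 ± 0.10 (adjusted p = 0.451). Over all 33 measured genes of the list, 7 were called lower and 9 higher at 2 h, 12 lower and 9 higher at 4 h, and 4 lower and 10 higher at 10 h, with medians of 0.02, -0.10 and 0.06. Of all probe sets, 13.8% were called lower and 9.57% higher at 2 h. The shares at 4 h were 17.5% lower and 12.6% higher, and those at 10 h 13.8% lower and 11.6% higher. The members were thus part of a list that moved both ways. INHBA, a subunit of activin A that is no member and was named with its value known, rose at 2 h by 2.81 ± 0.16 (adjusted p = 3.89e-16).

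**Figure D4:**
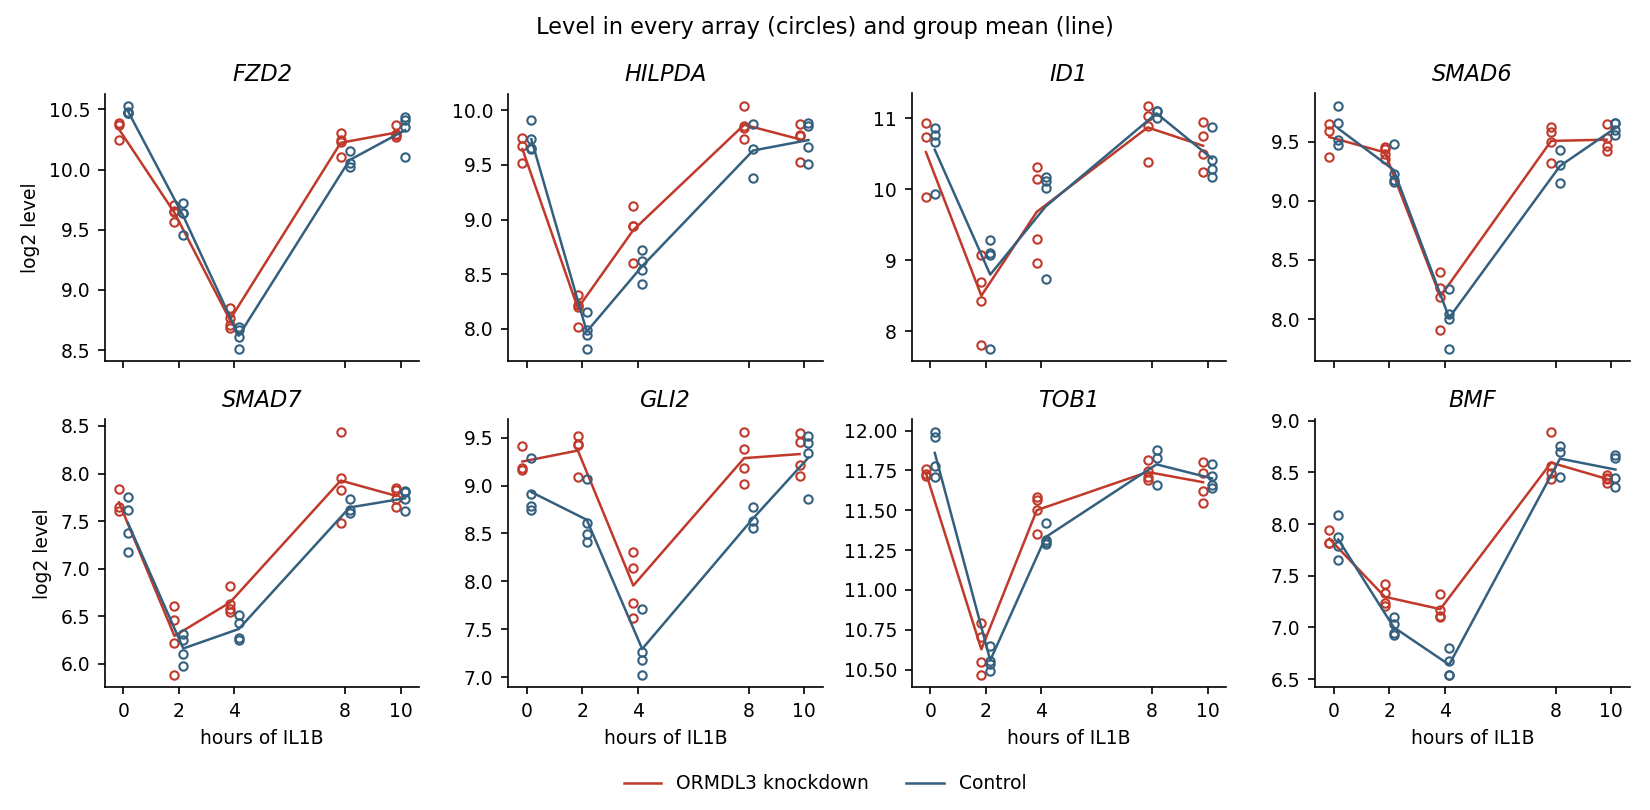
Log2 level in every array (circles) with group means (lines) against hours of IL1B for FZD2, HILPDA, ID1, SMAD6, SMAD7, GLI2, TOB1 and BMF, in ORMDL3 knockdown (red, drawn slightly left) and Control cells (blue); each panel has its own axis. HILPDA, ID1, SMAD7 and TOB1 have their lower mean at 2 h, FZD2, SMAD6 and GLI2 at 4 h, and BMF ends above its 0 h level in both arms.

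FZD2, a frizzled receptor for Wnt ligands, had the deepest Control dip of all members. Its knockdown arrays stood at 10.25, 10.39 and 10.37 at 0 h, at 9.57, 9.71, 9.65 and 9.65 at 2 h, at 8.71, 8.68, 8.85 and 8.76 at 4 h, at 10.23, 10.24, 10.31 and 10.11 at 8 h and at 10.30, 10.29, 10.37 and 10.27 at 10 h. Its Control arrays stood at 10.47, 10.53, 10.48 and 10.47 at 0 h, at 9.64, 9.64, 9.46 and 9.72 at 2 h, at 8.61, 8.51, 8.69 and 8.67 at 4 h, at 10.06, 10.16 and 10.02 at 8 h and at 10.36, 10.11, 10.44 and 10.41 at 10 h. The 0, 2 and 4 h arrays formed separate steps, each below the one before, in both arms. In knockdown cells FZD2 fell by 0.69 ± 0.07 at 2 h and by 1.58 ± 0.07 at 4 h (adjusted p = 6.13e-19), rose by 1.56 ± 0.07 between 4 and 10 h, and its 10 h difference from 0 h was -0.03 ± 0.07 (adjusted p = 0.841). FZD5, another frizzled receptor, fell by 0.38 ± 0.06 at 2 h and by 0.69 ± 0.06 at 4 h.

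DKK1, a secreted inhibitor of Wnt coreceptors, was early. Its knockdown arrays stood at 12.95, 12.99 and 12.87 at 0 h, at 11.75, 11.90, 11.79 and 11.85 at 2 h, at 12.52, 12.38, 12.34 and 12.34 at 4 h, at 12.81, 12.81, 12.76 and 12.83 at 8 h and at 12.71, 12.82, 12.82 and 12.75 at 10 h. The Control arrays stood at 12.77, 12.89, 12.90 and 12.70 at 0 h, at 11.66, 11.69, 11.75 and 11.63 at 2 h, at 11.95, 11.82, 11.83 and 11.90 at 4 h, at 12.70, 12.62 and 12.74 at 8 h and at 12.51, 12.51, 12.51 and 12.56 at 10 h. At 4 h the knockdown arrays had come farther back than the Control arrays, which did not overlap them; that difference involves arrays of the rule and was not tested. DKK1 fell by 1.11 ± 0.06 at 2 h (adjusted p = 5.03e-17), and at 10 h it was still called lower, by -0.16 ± 0.06 (adjusted p = 0.0374). NKD1, an intracellular inhibitor induced by Wnt signals, had a difference of -0.27 ± 0.16 at 2 h (adjusted p = 0.237; with the replicate block -0.32 ± 0.09, adjusted p = 0.00693) and fell by 1.03 ± 0.16 at 4 h. BCL9, a coactivator of beta-catenin, fell by 0.54 ± 0.09 and 0.69 ± 0.09 at 2 and 4 h. PRICKLE1, a planar cell polarity protein, was low at both hours, at -1.40 ± 0.16 and -1.58 ± 0.16. Of 39 measured genes on a Wnt list of 48, which held 5 of the members, 10 were called lower and 6 higher at 2 h, 16 lower and 5 higher at 4 h, and 12 lower and 4 higher at 10 h, against 13.8% lower and 9.57% higher, 17.5% and 12.6%, and 13.8% and 11.6% of all probe sets at these hours.

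GLI2, a transcription factor of the Hedgehog pathway, separated 2 h from 4 h most sharply. Its knockdown arrays stood at 9.16, 9.18 and 9.41 at 0 h, at 9.52, 9.09, 9.43 and 9.43 at 2 h, at 7.62, 7.77, 8.14 and 8.30 at 4 h, at 9.01, 9.18, 9.39 and 9.56 at 8 h and at 9.10, 9.21, 9.45 and 9.55 at 10 h. Its Control arrays stood at 8.79, 8.91, 8.74 and 9.29 at 0 h, at 8.41, 8.61, 8.49 and 9.06 at 2 h, at 7.02, 7.18, 7.26 and 7.71 at 4 h, at 8.56, 8.78 and 8.63 at 8 h and at 9.52, 8.86, 9.34 and 9.45 at 10 h. Only the 4 h arrays lay below all 0 h arrays in knockdown cells. GLI2 had a difference of 0.11 ± 0.18 at 2 h (adjusted p = 0.694), fell by 1.29 ± 0.18 at 4 h (adjusted p = 6.59e-07) and fell by 1.41 ± 0.17 between 2 and 4 h (adjusted p = 1.52e-07), the largest such fall among the members. GLIS2, a related zinc finger factor, fell by 0.45 ± 0.12 at 2 h and by 1.01 ± 0.12 at 4 h.

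TOB1, an antiproliferative protein that recruits the CCR4-NOT deadenylase, had knockdown arrays at 11.76, 11.73 and 11.71 at 0 h, at 10.70, 10.55, 10.79 and 10.46 at 2 h, at 11.50, 11.58, 11.56 and 11.35 at 4 h, at 11.81, 11.71, 11.75 and 11.69 at 8 h and at 11.73, 11.62, 11.81 and 11.55 at 10 h. The Control arrays stood at 11.71, 11.99, 11.96 and 11.78 at 0 h, at 10.54, 10.56, 10.65 and 10.49 at 2 h, at 11.32, 11.29, 11.42 and 11.30 at 4 h, at 11.66, 11.83 and 11.88 at 8 h and at 11.64, 11.71, 11.79 and 11.66 at 10 h. The 2 h arrays stood apart, and most of the return had been made by 4 h. TOB1 fell by 1.11 ± 0.08 at 2 h (adjusted p = 1.97e-13). It was still called lower at 4 h, at -0.23 ± 0.08 (adjusted p = 0.0224), a call lost without knockdown 4 h replicate 4 (-0.18, adjusted p = 0.0996), knockdown 0 h replicate 1 (-0.22, adjusted p = 0.0758) or knockdown 0 h replicate 2 (-0.24, adjusted p = 0.0539), and when array medians were subtracted (-0.19, adjusted p = 0.0683).

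HILPDA, a lipid droplet protein that hypoxia induces, was low at both hours. Its knockdown arrays stood at 9.52, 9.67 and 9.74 at 0 h, at 8.20, 8.22, 8.31 and 8.02 at 2 h, at 8.60, 8.94, 9.13 and 8.95 at 4 h, at 9.85, 9.74, 10.04 and 9.84 at 8 h and at 9.53, 9.76, 9.88 and 9.77 at 10 h. Its Control arrays stood at 9.64, 9.91, 9.65 and 9.74 at 0 h, at 7.81, 7.99, 8.16 and 7.94 at 2 h, at 8.41, 8.72, 8.54 and 8.62 at 4 h, at 9.38, 9.87 and 9.64 at 8 h and at 9.67, 9.51, 9.85 and 9.88 at 10 h. No 2 h or 4 h array reached a 0 h array in either arm. In knockdown cells HILPDA fell by 1.45 ± 0.12 at 2 h (adjusted p = 5.98e-12) and by 0.74 ± 0.12 at 4 h (adjusted p = 6.22e-06).

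ANGPTL4, a secreted inhibitor of lipoprotein lipase, and BMF, a BH3-only protein that promotes apoptosis, dipped and then passed their starting level. ANGPTL4 had knockdown arrays at 7.40, 7.24 and 7.38 at 0 h, at 6.84, 6.68, 6.95 and 7.09 at 2 h, at 6.31, 6.29, 6.05 and 6.34 at 4 h, at 8.03, 7.98, 7.87 and 8.06 at 8 h and at 7.75, 7.59, 7.77 and 7.87 at 10 h. The Control arrays stood at 7.36, 7.21, 7.14 and 7.25 at 0 h, at 6.78, 6.87, 6.59 and 6.75 at 2 h, at 6.19, 5.94, 6.13 and 5.69 at 4 h, at 7.32, 7.65 and 7.51 at 8 h and at 7.71, 7.47, 7.53 and 7.45 at 10 h. In knockdown cells every 8 h and 10 h array lay above every 0 h array. ANGPTL4 fell by 1.09 ± 0.10 at 4 h (adjusted p = 1.94e-10), rose by 1.50 ± 0.10 between 4 and 10 h (adjusted p = 3.58e-14), and was higher than at 0 h by 0.65 ± 0.10 at 8 h (adjusted p = 9.84e-06) and by 0.41 ± 0.10 at 10 h (adjusted p = 0.00326).

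BMF had knockdown arrays at 7.81, 7.82 and 7.94 at 0 h, at 7.33, 7.20, 7.23 and 7.42 at 2 h, at 7.11, 7.32, 7.10 and 7.17 at 4 h, at 8.56, 8.89, 8.43 and 8.49 at 8 h and at 8.43, 8.47, 8.44 and 8.40 at 10 h. Its Control arrays stood at 8.09, 7.65, 7.88 and 7.79 at 0 h, at 7.03, 7.10, 6.93 and 6.95 at 2 h, at 6.80, 6.54, 6.68 and 6.54 at 4 h, at 8.76, 8.69 and 8.45 at 8 h and at 8.64, 8.44, 8.36 and 8.67 at 10 h. Its 3 levels, at 0 h, at 2 and 4 h and at 8 and 10 h, did not overlap in either arm. In knockdown cells BMF fell by 0.68 ± 0.10 at 4 h and was higher than at 0 h by 0.74 ± 0.10 at 8 h (adjusted p = 6.97e-07) and by 0.58 ± 0.10 at 10 h (adjusted p = 3.8e-05).

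TRIB3, a stress-induced pseudokinase, fell by 0.36 ± 0.08 at 2 h and by 0.88 ± 0.08 at 4 h in knockdown cells. GADD45B, a stress sensor and a known NF-kB target, fell by 0.76 ± 0.11 and 0.86 ± 0.11. DAPK1, a calcium-regulated kinase linked to cell death, fell by 0.27 ± 0.07 at 2 h and by 1.18 ± 0.07 at 4 h. MIDN, a nuclear protein that delivers short-lived proteins to the proteasome, fell by 0.84 ± 0.12 at 2 h, by 0.51 ± 0.12 at 4 h and was called higher at 8 h, by 0.36 ± 0.12 (adjusted p = 0.027). PPP1R3B, which targets a phosphatase to glycogen, fell by 1.11 ± 0.14 at 2 h. CHKA, a choline kinase, and ABHD6, a monoacylglycerol lipase, fell at 4 h by 0.55 ± 0.09 and 1.10 ± 0.11. Of 40 measured genes on a list of FOXO and fasting-responsive genes, which held 3 members, 13 were called lower and 11 higher at 2 h, against 13.8% and 9.57% of all probe sets, and 17 lower and 9 higher at 4 h, against 17.5% and 12.6%.

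JADE1, a scaffold of the HBO1 histone acetyltransferase, averaged 8.96 ± 0.05 at 0 h (SD, n = 3), 7.55 ± 0.02 at 2 h, 7.74 ± 0.09 at 4 h, 8.72 ± 0.09 at 8 h and 8.76 ± 0.07 at 10 h in knockdown cells (SD, n = 4), and 9.01 ± 0.07, 7.79 ± 0.13, 7.65 ± 0.05, 8.73 ± 0.10 and 8.91 ± 0.13 at the same hours in Control cells. It was among the 4 lowest members at 2 h in knockdown cells, at -1.41 ± 0.07 (SE, adjusted p = 3.55e-17), together with ID1, GATA3 and HILPDA. GATA3, a lineage factor of several epithelia and of T cells, fell by 1.45 ± 0.19 at 2 h and by 1.10 ± 0.19 at 4 h. ARID5B, a DNA-binding cofactor of a histone demethylase, fell by 1.28 ± 0.08 and 0.97 ± 0.08. HEXIM1, an inhibitor of the elongation factor P-TEFb, fell by 0.57 ± 0.11 and 0.89 ± 0.11. RARA, a retinoic acid receptor, fell by 0.86 ± 0.15 at 4 h.

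BCOR, a corepressor of BCL6, was among the 4 highest members at 2 h, at 0.28 ± 0.11 (adjusted p = 0.0676; with the replicate block 0.28 ± 0.09, adjusted p = 0.0139), and was lower than 0 h at 4 h, at -0.68 ± 0.11 (adjusted p = 7.6e-06). Without knockdown 0 h replicate 4 its 2 h difference was called, at 0.37 (adjusted p = 0.0226). RUNX3, a runt-domain factor, and ZFP36L2, which binds AU-rich mRNAs and speeds their decay, had 2 h differences of -0.15 ± 0.11 and -0.14 ± 0.12 that did not pass the test. Both fell at 4 h, by 0.45 ± 0.11 and 0.45 ± 0.12. Members with a zinc finger gene symbol numbered 5 (4.46%), against 390 of all measured genes (3.28%). Among them ZNF57 fell by 1.08 ± 0.12 at 2 h and ZNF703 by 0.73 ± 0.11, and ZNF488 fell by 1.15 ± 0.14 at both hours. SERTAD3, an E2F-interacting factor, fell by 1.18 ± 0.11 at 2 h and was at -0.20 ± 0.11 at 4 h (adjusted p = 0.211). RASSF10, a Ras-association domain protein, fell by 0.76 ± 0.13 at 2 h and was at 0.04 ± 0.13 at 4 h (adjusted p = 0.857), with a sign that changed without knockdown 0 h replicate 4 (-0.005475) or knockdown 4 h replicate 2 (-0.03496).

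TNFRSF1A, the main receptor for TNF, was at -0.17 ± 0.08 at 2 h (adjusted p = 0.0917; with the replicate block -0.19 ± 0.06, adjusted p = 0.0137) and fell by 0.66 ± 0.08 at 4 h in knockdown cells (adjusted p = 1.28e-08). NRP1, a coreceptor for semaphorins and VEGF, fell by 0.86 ± 0.06 at 4 h and rose by 0.90 ± 0.06 between 4 and 10 h. FFAR4, a receptor for long-chain fatty acids, fell by 0.79 ± 0.19 at 4 h and rose by 1.44 ± 0.18 between 4 and 10 h. BDNF, a neurotrophin, fell by 1.14 ± 0.11 at 2 h.

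FIGN, a microtubule-severing enzyme, had the second deepest Control dip and the lowest knockdown difference at 4 h. Its knockdown arrays stood at 8.31, 8.17 and 8.29 at 0 h, at 7.05, 6.73, 7.04 and 6.89 at 2 h, at 6.48, 6.51, 6.91 and 6.79 at 4 h, at 7.55, 7.84, 7.91 and 8.04 at 8 h and at 7.61, 7.84, 7.76 and 7.88 at 10 h. The Control arrays stood at 8.06, 7.96, 7.86 and 8.21 at 0 h, at 6.35, 6.42, 6.48 and 6.81 at 2 h, at 6.29, 6.00, 6.08 and 6.30 at 4 h, at 7.68, 7.45 and 7.64 at 8 h and at 8.21, 7.65, 8.05 and 8.13 at 10 h. At 10 h the knockdown arrays were all still below their 0 h arrays, while the Control arrays overlapped theirs. The rule took only genes with a Control difference above -0.3 at 10 h, so this contrast between arms was not tested. FIGN fell by 1.33 ± 0.13 at 2 h and by 1.59 ± 0.13 at 4 h (adjusted p = 5.93e-12), and was still lower at 10 h, by -0.48 ± 0.13 (adjusted p = 0.00534). IFFO2, of the intermediate filament family, was at -0.29 ± 0.13 at 2 h (adjusted p = 0.0884) and fell by 1.51 ± 0.13 at 4 h. MLPH, which links Rab27a to myosin Va, fell by 0.93 ± 0.08 at 4 h. Of 19 measured NF-kB feedback genes, none was a member. All 19 were called higher at 2, 4 and 10 h in knockdown cells, with medians of 1.87, 1.96 and 0.81. At 8 h 18 were called higher, with a median of 0.82. Of all probe sets, 9.57%, 12.6%, 11.2% and 11.6% were called higher at 2, 4, 8 and 10 h.

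Some members were called different from 0 h in knockdown cells at 8 and 10 h. In the main fit such calls were about as frequent, or more frequent, among all probe sets. At 8 h, 24 of the 112 genes (21.4%) were called lower than at 0 h, against 17.7% of probe sets, and 6 (5.36%) higher, against 11.2%. With array medians subtracted the counts were 14 lower and 11 higher, and with quantile normalization 18 lower and 8 higher. With the replicate number as a block 35 were lower, against 20.4% of probe sets in the same fit, and with array weights 38 were lower, against 23.1%, and 11 higher, against 16%. The lower count at 8 h was 15 without knockdown 0 h replicate 1. At 10 h, 13 genes (11.6%) were called lower, against 13.8% of probe sets, and 9 (8.04%) higher, against 11.6%. With the replicate number as a block, 24 genes were called lower at 10 h, against 16.4% of probe sets in the same fit, and with array weights 27, against 18.9%. Without knockdown 0 h replicate 1 or replicate 2 there were 8, and without knockdown 10 h replicate 4 there were 9. The 10 h difference was above -0.3 for 98 genes, a count given without the share of all probe sets.

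The 13 genes lower at 10 h were FIGN, JADE1, PRICKLE1, LHX4, DKK1, GATA3, KRT80, BDNF, ID2, BCL9, ZNF488, ANKMY2 and ARHGAP29. ZNF488 was the lowest, at -0.63 ± 0.14 (adjusted p = 0.00093; -0.46 and adjusted p = 0.0504 when the arrays numbered 4 were left out). GATA3 was at -0.59 ± 0.19 (adjusted p = 0.0222), a call lost without any of 4 single arrays, with the highest adjusted p, 0.0812, without knockdown 0 h replicate 4. LHX4, a LIM homeobox factor, was at -0.52 ± 0.14 (adjusted p = 0.00496) and lost its call without knockdown 0 h replicate 2 (-0.41, adjusted p = 0.0575). At 8 h THNSL1 was the lowest member, at -0.75 ± 0.14 (adjusted p = 6.69e-05).

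The 9 genes higher at 10 h were ANGPTL4, BMF, FFAR4, SYNC, IER5L, IRF2BPL, CXXC5, CCR7 and ZNF281. FFAR4 was at 0.65 ± 0.19 (adjusted p = 0.0127), a call lost without knockdown 0 h replicate 4 (0.50, adjusted p = 0.0938) or knockdown 10 h replicate 1 (0.53, adjusted p = 0.0579). SYNC, the intermediate filament protein syncoilin, was at 0.45 ± 0.11 (adjusted p = 0.00276). CCR7, a chemokine receptor of lymphocytes and dendritic cells, was at -0.41 ± 0.15 at 4 h (adjusted p = 0.0351) and at 0.46 ± 0.15 at 10 h (adjusted p = 0.0213). Its 4 h call was lost without knockdown 0 h replicate 1 (-0.30, adjusted p = 0.219), and without knockdown 4 h replicate 1, 2 or 4 (-0.39, -0.37 and -0.38). Its 10 h call was lost without knockdown 0 h replicate 2 or 4 (0.39 and 0.41) or knockdown 10 h replicate 1 or 3 (0.39 and 0.42).

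Knockdown and Control cells were compared at 8 h, the one hour whose Control arrays had no part in choosing the genes. In knockdown cells 5 members were called higher than in Control cells, against 1.62% of probe sets, and none lower by limma, against 1.26%. An unadjusted limma p under 0.05 was reached by 25 members in the higher and 2 in the lower direction. The share of all probe sets at that threshold is not given here. The median difference was 0.08, against -0.03 over all probe sets. GLI2, with its 8 h arrays given above, had the largest difference of all members, 0.63 ± 0.18, and missed the call (adjusted p = 0.0506). Its arrays did not overlap between arms. With the replicate number as a block 7 members were called higher, with GLI2 (0.54 ± 0.13, adjusted p = 0.0113) and SH3RF2 (0.32 ± 0.09, adjusted p = 0.0376) added. The share of all probe sets in that fit is not given here. ANGPTL4, with its 8 h arrays given above, was higher in knockdown cells by 0.49 ± 0.10 (adjusted p = 0.0063), and the arrays of the arms did not overlap. TRIB3 stood at 10.03, 9.99, 9.88 and 9.96 in knockdown arrays and at 9.42, 9.66 and 9.56 in Control arrays, a difference of 0.42 ± 0.08 (adjusted p = 0.00424) with no overlap. PLEKHA7, a protein of adherens junctions, stood at 7.69, 8.04, 7.78 and 8.05 in knockdown arrays and at 7.40, 7.38 and 7.56 in Control arrays, a difference of 0.44 ± 0.10 (adjusted p = 0.0133), again with no overlap. VGLL3, a cofactor of TEAD factors, stood at 8.79, 9.11, 9.08 and 9.20 in knockdown arrays and at 8.55, 8.62 and 8.82 in Control arrays, a difference of 0.38 ± 0.08 (adjusted p = 0.00893), and the lowest knockdown array overlapped the Control arrays. P2RY6, a receptor for UDP, stood at 9.32, 9.26, 8.75 and 9.05 in knockdown arrays and at 8.70, 8.91 and 8.54 in Control arrays, a difference of 0.38 ± 0.11 (adjusted p = 0.0484), with 1 knockdown array among the Control arrays. P2RY6 lost its call without most single arrays of the series, and its adjusted p was highest when the third Control array was left out, at 0.302. PLEKHA7 also lost its call without Control 8 h replicate 1 or 2 (0.42 and 0.41, adjusted p = 0.0713 and 0.0697) or knockdown 8 h replicate 4 (0.39, adjusted p = 0.0698). VGLL3 lost its call without that knockdown array too (0.33, adjusted p = 0.0545). With the first Control array left out, the differences of ANGPTL4, TRIB3 and VGLL3 were 0.41, 0.36 and 0.32, at adjusted p = 0.0713, 0.051 and 0.0861. The count of 5 fell to 0 without Control 8 h replicate 1, to 2 without knockdown 8 h replicate 4 and to 0 when the 8 h groups were fitted alone. Whether these differences were there before IL1B was not tested, since the 0 h Control arrays chose the genes. At 0 h the knockdown and Control means were 7.34 and 7.24 for ANGPTL4, 10.06 and 9.97 for TRIB3, 8.12 and 8.24 for PLEKHA7, 9.24 and 8.95 for VGLL3, and 8.99 and 9.16 for P2RY6. For GLI2 they were 9.25 and 8.93.

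**Figure D5:**
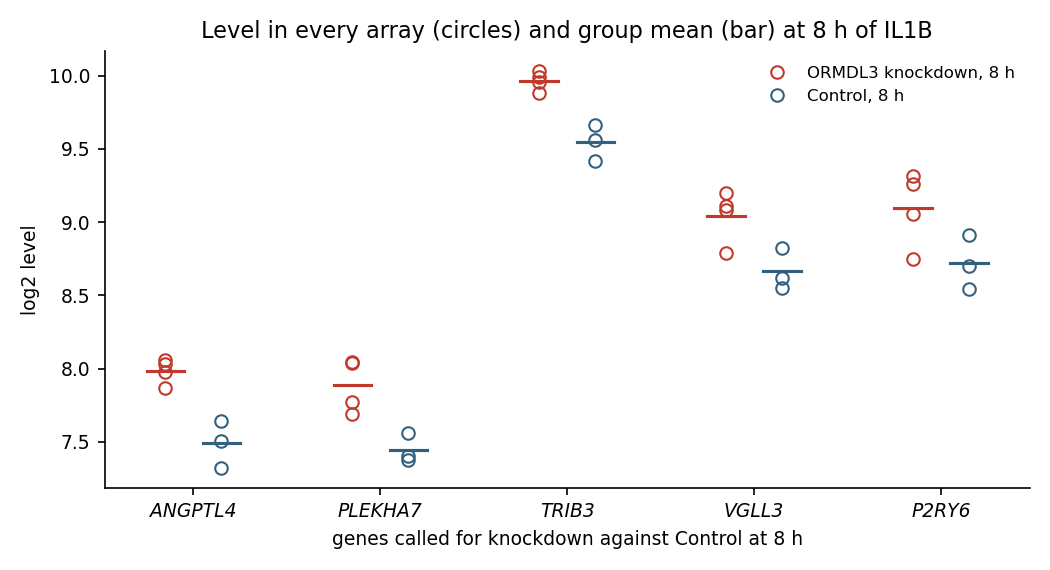
Log2 level at 8 h of IL1B in every array (circles) with the group mean (bar) for the 5 members called between arms, ORMDL3 knockdown (red, left) and Control (blue, right). The arms do not overlap for ANGPTL4, PLEKHA7 and TRIB3, and they overlap for VGLL3 and P2RY6.

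The members were spread over the genome. Chromosomes 1, 17 and 19 held 12 members each, which is 10.7% of members, against 9.64%, 6.46% and 7.29% of all measured genes. In 3 cases a pair of members were neighbours in RefSeq order: P2RY6 and ARHGEF17 on chromosome 11, TNS4 and CCR7 on chromosome 17, and INHBB and GLI2 on chromosome 2. P2RY6 and ARHGEF17 fell at 4 h by 0.54 ± 0.11 and 0.60 ± 0.19 in knockdown cells, with ARHGEF17 losing its call without knockdown 0 h replicate 4 (-0.35, adjusted p = 0.191) or knockdown 4 h replicate 1 (-0.50, adjusted p = 0.0542). TNS4 was at -0.07 ± 0.14 at 2 h (adjusted p = 0.751) and fell by 1.05 ± 0.14 at 4 h.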

How the data were processed

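Expression values of 38 arrays were deposited by the authors as log2 levels per probe set, 14488 probe sets with no missing value. Per the submitters' processing notes, Affymetrix Power Tools, RMA, limma 3.22.7 and hg19 were used, without a stated role or order. How probe sets were selected is not stated. Genes were named through the platform annotation: 12132 probe sets had 1 symbol, 628 several and 1728 none, and 12121 matched RefSeq records by Entrez identifier.

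With limma 3.58.1 in R 4.3.3, 1 mean per arm and hour (10 groups) was fitted to all arrays with empirical Bayes moderation. This main fit left the replicate number out, and the fit with it as a block was an alternative. More members were called lower than 0 h with the block, as given in the last section. p-values were adjusted by Benjamini-Hochberg over all 14488 probe sets and called under 0.05. Differences are given ± limma's standard error. The test was tried on simulated data for knockdown 4 h minus 0 h. It recovered 76 of 100 changes of -0.5 and 98 of 100 changes of -1, with 9 false calls. Comparisons with 0 h share its arrays. The number of arrays limits precision.

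The members and gene lists were chosen with earlier results of these data known. Genes were named by a rule: ORMDL3, the 15 deepest Control dips, the 4 highest Control differences at 10 h, the 4 lowest and 4 highest knockdown differences at each hour, the 4 largest knockdown rises between 4 and 10 h, up to 5 called genes per direction at 8 h, 3 genes on each side of each threshold, up to 4 members per list and the 4 deepest zinc finger genes. Members named outside this rule were chosen with their values known.

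Same-numbered knockdown arrays deviated together from their group means against 0 h (correlations of 0.18 to 0.37 at 2 h, 0.19 to 0.31 at 4 h, 0.13 to 0.21 at 8 h and 0.15 to 0.54 at 10 h, 3 pairs each). Differently numbered pairs reached 0.07 at 2 h, 0.12 at 4 h, 0.24 at 8 h and 0.34 at 10 h. The label's number was used as a block in an alternative fit, but at 8 and 10 h these values do not settle the pairing. Same-numbered knockdown arrays did not all deviate together between 4 and 10 h (-0.08 to 0.23), 2 and 10 h (-0.04 to 0.37) or 2 and 4 h (-0.01 to 0.37). Nor did those of knockdown and Control at 8 h (-0.22 to -0.03). The alternatives were leaving out each array, the replicate block, other samples in the fit, a filter on dim probe sets, other normalizations, variance models and weights, all probe sets per gene and a deeper threshold.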

Additional observations from a re-analysis of the deposited data

Results flagged for a closer look

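In 136 groups of 4 arrays, of 16 genes and of the members' median, 1 array lay far from the others in 5. Chance gives 1 in 20 for independent groups. These groups were not independent, since both ID1 cases fell on replicate 4, the lowest ID1 array at every hour that had one. That rate therefore does not describe these cases. ID1 stood at 7.75 in Control 2 h replicate 4, against 9.07 to 9.28 in the other Control 2 h arrays, and at 8.73 in Control 4 h replicate 4, against 10.01 to 10.17. The spread was small in the other cases. FZD2 stood at 10.53 in Control 0 h replicate 2, against 10.47 to 10.48, and DKK1 at 12.56 in Control 10 h replicate 4, against 12.51. The median of the 112 members was 8.63 in Control 10 h replicate 2, against 8.74 to 8.76 in the other Control 10 h arrays.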

How the results depend on the processing

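Leaving out single arrays gave 68 to 80 lower at 2 h, 103 to 109 at 4 h, 15 to 27 at 8 h and 8 to 15 at 10 h, 5 to 8 higher at 8 h and 6 to 9 at 10 h, 103 to 108 higher at 10 h than at 4 h and 68 to 76 than at 2 h, 47 to 62 lower and 14 to 18 higher at 4 h than at 2 h, and 0 to 6 higher than Control at 8 h, where 0 were lower. With dim probe sets left out, 65 members remained, of which 43, 61, 11 and 7 were lower at 2, 4, 8 and 10 h, 4 higher at 8 h and at 10 h, and 63 and 42 higher at 10 h than at 4 h and 2 h. At a Control dip of -1 or below, 60 members remained, with 49, 57, 15 and 6 lower, 5 higher at 10 h, 58 and 48 higher at 10 h than at 4 h and 2 h, and 32 lower at 4 h than at 2 h. Both counts are lower by construction. With array medians subtracted, 14 were lower and 11 higher at 8 h, and 8 higher than Control at 8 h. Array weights gave 38 lower and 11 higher at 8 h, 27 lower at 10 h and 8 higher than Control at 8 h. The replicate block gave 24 lower at 10 h and 35 at 8 h, 91 lower at 2 h and 109 at 4 h, and 7 higher than Control at 8 h. With the 8 h groups fitted alone 0 were higher than Control, and with the arrays numbered 4 left out, an alternative chosen after seeing the data, 2. Elsewhere the cause was not tested.

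Of 6195 values of named genes under 49 settings, 6088 kept direction and call, 77 lost and 22 gained the call, and 8 changed sign. These were RASSF10 at 4 h (-0.03496 to 0.1287 with single arrays left out, below 0 without knockdown 0 h replicate 4 or knockdown 4 h replicate 2, and -0.007916 with array weights) and 3 genes at 2 h: ARHGEF17 (-0.2462 to 0.1762, above 0 without knockdown 0 h replicate 4, 0.06145 with array weights and 0.07895 without the arrays numbered 4), MLXIP (-0.205 to 0.03849, above 0 without knockdown 0 h replicate 4) and MAML3 (-0.01508 to 0.08799, below 0 without knockdown 2 h replicate 3). None of the 4 had passed the test there.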
